A study of Mus musculus with 16 samples.

Results

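Prdm1, Irf4, Irf8, Xbp1, Bcl6, Bach2, S1pr2 and Sdc1 are 8 genes of the germinal centre and plasma cell programme of B cells, out of 21755 annotated protein-coding genes, of which 21035 had a promoter and 20474 a gene body that could be tested. They were chosen by name, and their DNA methylation was read at the promoter (within 1 kb of the gene start), in the gene body (from 1 kb after the start to the gene end) and in 500 bp tiles from 10 kb upstream of the start to the gene end. The study used whole genome bisulphite sequencing (WGBS) of B and T cells to search for retrotransposons whose methylation varies between mice of one inbred strain. Spleens of C57BL/6J mice, 6 to 8 weeks old, gave 16 libraries: 8 from resting B cells isolated magnetically as CD43- cells and 8 from naive CD4+ CD62L+ T cells. Within each cell type, 4 libraries were from males and 4 from females. Of the 4 libraries of a sex in a cell type, 2 were bisulphite treated (BS), so that 5-methylcytosine and 5-hydroxymethylcytosine both count as methylated. The other 2 were oxidised beforehand (oxBS), so that 5-hydroxymethylcytosine counts as unmethylated. The mice were unaltered and untreated as far as the labels state, and the labels tie no library to a mouse, so that a test over libraries measures the spread between libraries, which may in part be technical.

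In an immune response, activated B cells enter germinal centres, where they mutate and select their receptors, and then leave them as memory cells or as antibody-secreting plasma cells. Bcl6 and Bach2 encode repressors that hold the germinal centre state and oppose plasma cell differentiation, while Irf4, Prdm1 (which encodes Blimp-1) and Xbp1 encode factors that drive plasma cell differentiation and secretion. Irf8 encodes a partner of PU.1 in B and myeloid cells, S1pr2 a receptor that keeps B cells in the centre of the follicle, and Sdc1 the surface proteoglycan syndecan-1 (CD138) by which plasma cells are sorted. Several of these genes also act in T cells: Bach2 maintains quiescence, Bcl6 directs follicular helper cells, and Irf4 and Prdm1 act in effector cells. CpGs at active promoters and enhancers are usually hypomethylated, and most of the remaining genome is methylated. The cells here were isolated as resting B cells and naive T cells, and expression of these genes was not measured.

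B cell libraries held 123693203 to 171130063 methylation calls and T cell libraries 154857425 to 170135949, a mean of 5.78 to 7.99 and of 7.22 to 7.94 calls per CpG. At this depth single CpGs were weakly measured, so calls were pooled over features. The level of a feature in a library is the share of its calls that were methylated, values with ± are means and SDs of the levels of 8 libraries, and differences are B minus T in percentage points. A feature was called at a Benjamini-Hochberg adjusted p under 0.05 in a quasi-binomial model that allowed for sex and assay, together with a difference of at least 20 points. Over all features tested the median difference was 0.570 points at promoters, 0.713 in gene bodies and 0.400 in tiles. The promoters of B cell marker genes were called lower in B cells at 5 of 7 genes, with all 7 past the adjusted p (Ms4a1, 13.6% against 94.2%), and those of T cell marker genes were called higher in B cells at 6 of 9, with 8 past the adjusted p (Cd3e, 86.5% against 2.63%). Of the other cells of the spleen, none of the 6 natural killer and myeloid marker promoters was called, at levels of 46.6% to 89.9% in B cells and 54.2% to 92.6% in T cells, though Lyz2 was past the adjusted p (46.6% ± 5.77 in B cells, 65.0% ± 3.36 in T cells, adjusted p = 0.000387), while both CD8 T cell markers were lower in the T cell libraries (Cd8a, 60.5% against 86.7% in B cells, and Cd8b1, 34.9% against 90.3%), and the part of other cells in the results below was not tested.

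At the first annotated start of each gene no promoter of the 8 genes was called, against 1.10% of all promoters. When the starts of 36 annotated transcripts of these genes were read instead, 3 were called, all of Irf8: Irf8-205 (-39.0 points), Irf8-202 (-69.0 points) and Irf8-203 (24.3 points). At the first starts all had low levels in both cell types, with the highest mean at the Irf4 promoter (20.6% ± 3.02 in B cells). Irf8 and Irf4 were past the adjusted p without reaching 20 points, and 10.5% of all promoters were past it with or without 20 points. At the Irf8 promoter the levels ran from 5.50% to 10.4% in B cells (median 8.63%) and from 11.5% to 18.5% in T cells (median 17.8%), a difference of -8.37 points (adjusted p = 0.000153). Every B cell library was below every T cell library there, as at 3.59% of promoters in either direction, and an exact two-sided permutation test gave p = 0.000155, the lowest value possible with 8 against 8 libraries. In oxBS libraries alone the adjusted threshold was missed (-6.70 points, adjusted p = 0.101), as it was in each sex alone. Irf4 went the other way, with 16.1% to 24.8% in B cells (median 21%) and 5.12% to 20.3% in T cells (median 11.5%). That difference was 8.56 points (adjusted p = 0.0195), and 2 male BS libraries of T cells, at 20.3% and 18.2%, lay within the B cell range. Read within 500 bp of the start, the Irf4 difference was -0.387 points (adjusted p = 0.912), and in BS libraries alone, at 5.29 points, it did not pass the threshold. It also missed it in males alone (adjusted p = 0.588), with consecutively numbered libraries added together (adjusted p = 0.0825), and without B cell libraries 1, 2, 9 and 10 or 3, 4, 11 and 12 (adjusted p = 0.192 and 0.0558). The other 6 promoters had mean levels of 0.529% to 5.93% in B cells, 0.0863% to 6.60% in T cells and no adjusted p below 0.0810, the value at Bcl6 (0.529% ± 0.429 against 0.0863% ± 0.102).

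**Figure D1:**
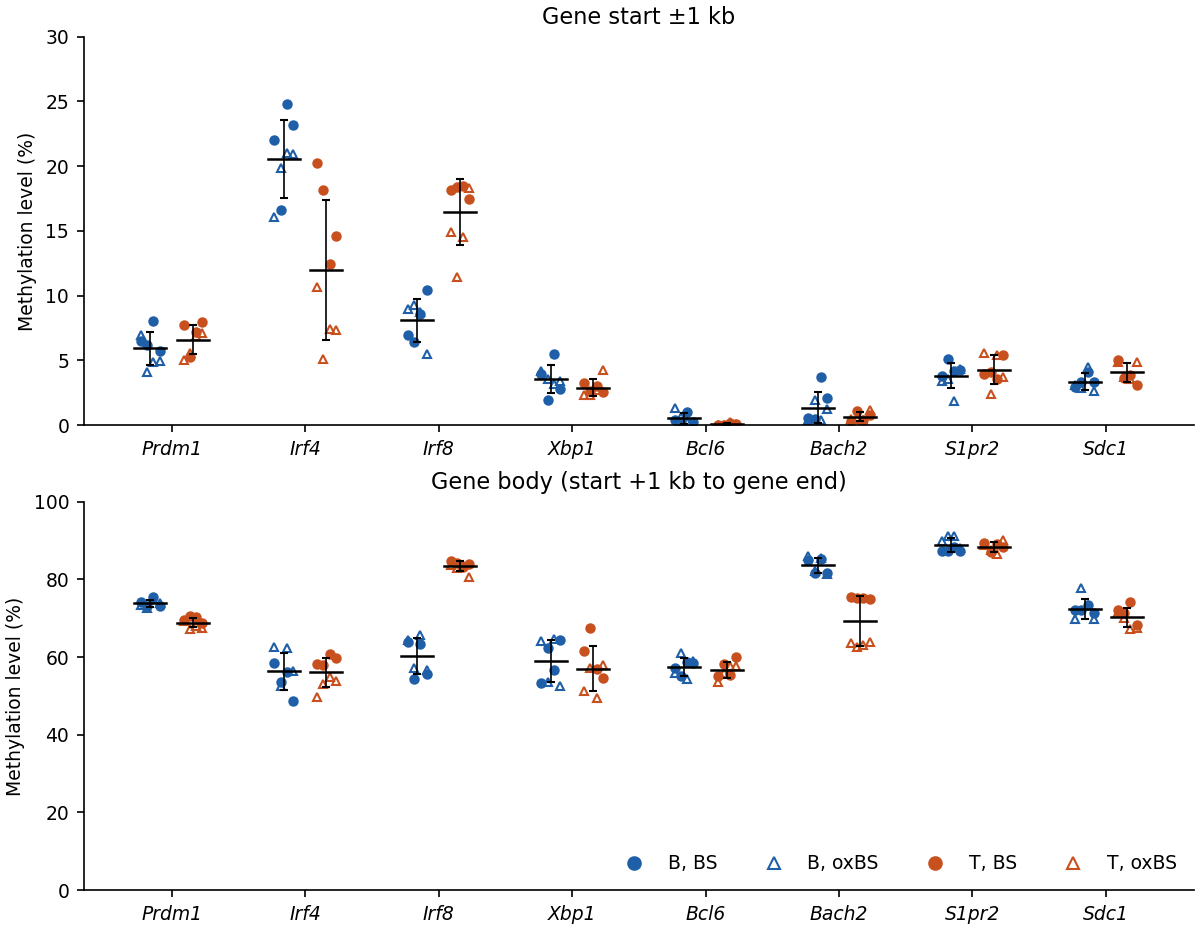
Methylation level (%) of the promoter (upper panel, axis to 30%) and gene body (lower panel) of the 8 genes in each library, with filled circles for BS and open triangles for oxBS, bars for the mean and error bars for the SD of 8 libraries. B and T cell libraries separated at the Irf8 promoter and at the Irf8, Bach2 and Prdm1 gene bodies, and the T cell triangles lay below the circles at the Bach2 body.

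In gene bodies only Irf8 was called, lower in B cells, against 0.899% of all bodies in either direction and 0.137% lower. Its level was 54.4% to 65.7% in B cells (median 60.3%) but 80.5% to 84.7% in T cells (median 83.8%), a difference of -23.2 points (adjusted p = 8.37e-07) that 0.630% of all bodies equalled or exceeded in size. Without the B cell libraries numbered 3, 4, 11 and 12, at 54.4% to 57.1%, the difference was -19.0 points and the body was not called. The Bach2 body was higher in B cells, at 81.5% to 86.0% (median 83.6%) against 62.7% to 75.5% (median 69.4%), by 14.3 points (adjusted p = 4.00e-05). The B cell libraries stood apart in the same 2 sets there, with libraries 1, 2, 9 and 10 at 85.1% to 86.0% and libraries 3, 4, 11 and 12 at 81.5% to 82.1% (16.2 and 12.5 points above T cells), a grouping chosen after the data were seen. The Prdm1 body was higher by 4.92 points (73.8% ± 0.981 against 68.9% ± 1.27, adjusted p = 1.85e-05). In all 3 genes the libraries of the cell types did not overlap, as in 11.8% of all bodies, and an adjusted p under 0.05 alone was reached by 35.7% of them. The bodies of Irf4, Xbp1, Bcl6, S1pr2 and Sdc1 differed by 0.235 to 2.16 points, with adjusted p between 0.205 and 0.898, and at Irf4 the 2 sets of B cell libraries differed from T cells by 3.76 and -3.29 points.

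Within the loci the contrast was read tile by tile. Of 1253 tiles on the grid, 1077 had at least 3 CpGs and 981 also had at least 10 calls in every library. In these, 226 tiles (23.0%) were called, against 3.08% of all 2426385 tiles and 3.89% of those in the windows of protein-coding genes. B cells were higher in 179 of them and lower in 47, where the backgrounds were 1.98% and 1.10%. The count differed between the assays, with 91 called (66 higher and 25 lower) in BS libraries alone and 188 (164 higher and 24 lower) in oxBS libraries alone, where 1.37% and 1.98% of all tiles were called. The called tiles were unevenly spread over the genes: Irf8 had 27 of 61 tested (44.3%), Irf4 15 of 43 (34.9%), Bach2 151 of 541 (27.9%), Xbp1 5 of 26 (19.2%), Prdm1 16 of 155 (10.3%), S1pr2 4 of 40, Bcl6 5 of 60 (8.33%) and Sdc1 3 of 55 (5.45%). Bach2, the longest gene, held most of them, and neighbouring tiles are not independent. Introns held 174 of the called tiles, 145 of them in Bach2, and the 10 kb upstream held 28, with the remaining 24 in exons. Tested tiles were not counted by feature, so these counts are not shares. The libraries of the cell types did not overlap in 211 of the 981 tested tiles, against 3.35% of all tiles. They did not in 180 of the 226 called tiles, which were picked by the same levels. In 44 of the called tiles that were higher in B cells the T cells had 20% or less, and in 11 of those that were lower the B cells did. Shares over all called tiles were not computed for these last 3 counts.

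**Figure D2:**
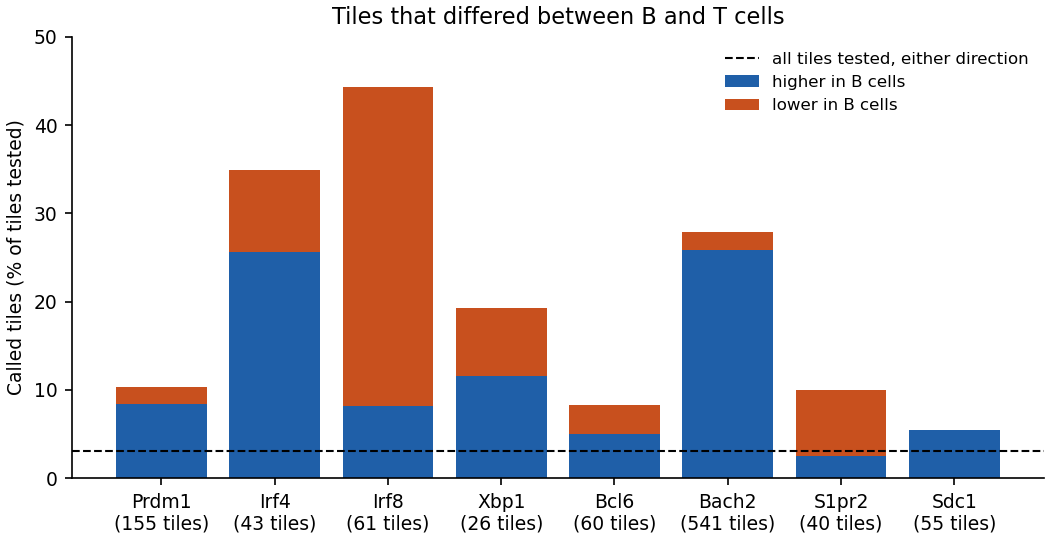
Share of tested 500 bp tiles (%) called higher or lower in B cells at each of the 8 genes, as stacked bars, with a dashed line at the share over all tiles (3.08%). All 8 bars end above the line, with Irf8 mostly lower in B cells and Bach2 mostly higher.

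At Irf8 more called tiles were lower in B cells than higher, 22 against 5, and the median tile difference was -7.66 points where that over the 981 tiles was 3.78. The longest stretch ran over 13 adjacent called tiles at chr8:120742501-120749000 of mm10, across introns and exons of the gene, with 96 CpGs. Libraries of B cells had 17.9% to 33.4% and those of T cells 87.8% to 91.4% there (26.4% ± 6.30 against 89.5% ± 1.27). The tile with the largest drop, chr8:120746001-120746500 in an intron 9893 bp after the gene start, had levels of 0% to 8.77% in B cells (median 3.23%) and of 85.2% to 100% in T cells (median 93.9%), a difference of -89.5 points (adjusted p = 8.88e-08). Each of its 8 CpGs showed the contrast: pooled over libraries, B cells had at most 9.88% and T cells at least 79.7%, from 39 to 81 and 40 to 64 calls per CpG. At chr8:120747501-120748000, also intronic, no methylated call was found in any B cell library, where 0 of 292 calls allow a level of up to 1.03% (counting error only), and T cells had 89.5% ± 5.74. A second stretch of 5 tiles at chr8:120737001-120739500, directly after the hypomethylated gene start, was at 42.0% ± 10.2 in B cells and 91.8% ± 1.67 in T cells. It holds the start of another principal protein-coding transcript, Irf8-205 at 120738639, within 1 kb of which the level was 56.5% ± 11.1 in B cells against 95.5% ± 0.971 in T cells, the called difference given above (adjusted p = 8.26e-06). The last called tiles, at chr8:120756001-120757000 over the 3′ end of the gene, were at 38.0% ± 9.42 and 95.4% ± 2.83.

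Tiles called higher in B cells lay at 2 places in the Irf8 window. One, at chr8:120751501-120753000, lay in exonic and intronic sequence (54.9% ± 6.41 in B cells against 25.5% ± 4.27 in T cells). The other lay upstream at chr8:120728001-120729000, within an intron of the overlapping gene model Gm20388. Its stronger tile, chr8:120728501-120729000, had levels of 85.7% to 100% in B cells (median 95%) and of 8.57% to 25.4% in T cells (median 16.0%), 78.7 points apart (adjusted p = 1.10e-07). The contrast was sharp in position there: T cells had no methylated call at the first 4 of its 6 CpGs, from 66 to 85 calls each, and 42.6% and 60.9% at the last 2, while B cells had 91.0% or more at all 6. The 4 zeros allow levels of up to 3.53% to 4.55%. These windows of the mm10 reference, plus strand, are printed with CpGs in capitals because they hold the strongest Irf8 contrast in each direction.
Irf8, lower in B cells, chr8:120746095-120746394: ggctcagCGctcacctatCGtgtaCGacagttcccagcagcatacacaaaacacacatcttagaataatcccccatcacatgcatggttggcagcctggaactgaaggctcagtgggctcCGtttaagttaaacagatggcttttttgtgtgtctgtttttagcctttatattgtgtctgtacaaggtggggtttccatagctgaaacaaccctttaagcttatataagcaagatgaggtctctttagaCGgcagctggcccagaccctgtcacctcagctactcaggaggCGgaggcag
Irf8, higher in B cells, chr8:120728659-120728958: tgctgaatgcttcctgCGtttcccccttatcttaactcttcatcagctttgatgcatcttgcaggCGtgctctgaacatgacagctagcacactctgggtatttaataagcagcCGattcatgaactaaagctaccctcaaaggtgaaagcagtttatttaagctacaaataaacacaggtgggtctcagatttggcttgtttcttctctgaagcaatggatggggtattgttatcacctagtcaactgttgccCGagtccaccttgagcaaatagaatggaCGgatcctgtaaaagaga

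**Figure D3:**
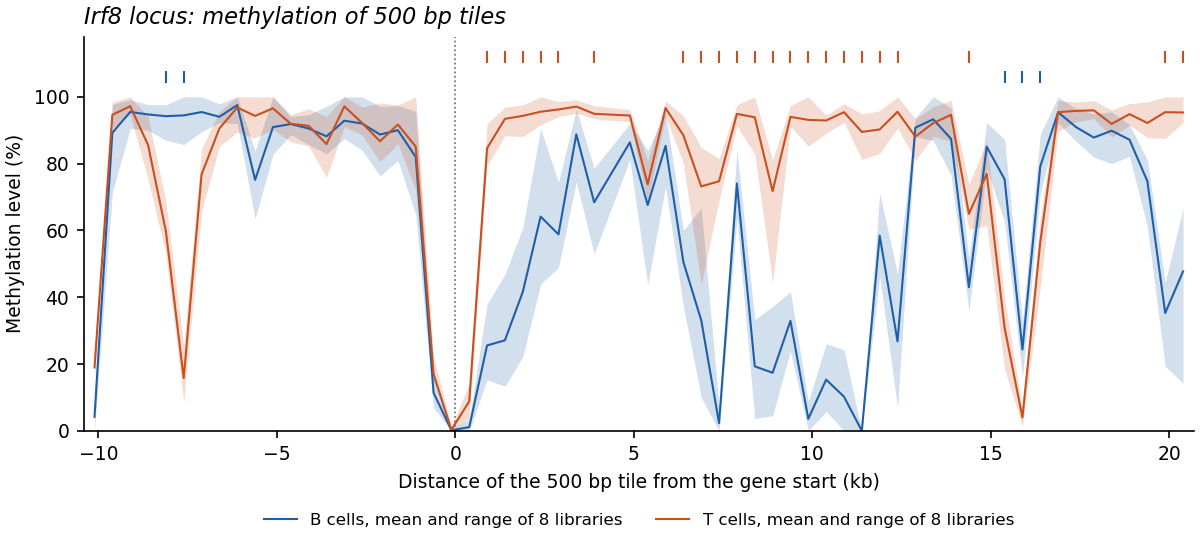
Methylation level (%) of each tested 500 bp tile against its distance from the Irf8 gene start (kb), as the mean (line) and range (band) of 8 libraries per cell type, with tick marks over tiles called higher (lower row) or lower (upper row) in B cells. Both cell types fall to near 0% at the start, and the B cell line then stays below the T cell line over most of the first 13 kb.

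Irf4 encodes a factor that is needed for plasma cells and for effector T cells, and its locus changed direction several times over a short distance. Of its 15 called tiles, 11 were higher in B cells and 4 lower. The 4 tiles before the gene start, chr13:30747001-30749000, were at 42.3% to 62.7% in B cells and 8.36% to 22.3% in T cells (52.4% ± 6.90 against 14.2% ± 4.81). In 1 of these tiles, chr13:30747501-30748000 with 12 CpGs, B cells had 36.2% to 70.7% (median 48.6%) and T cells no methylated call in any library, with 0 of 673 calls allowing up to 0.446%. After the start the order turned. The tile chr13:30751001-30751500, in an intron 2025 bp after the start, had 0% in 6 B cell libraries and 2.97% and 2.99% in the others, against 26.6% to 58.7% in T cells (median 45.1%), a difference of -44.1 points (adjusted p = 2.92e-06). Around the start, tiles at 20% or less ran over chr13:30749001-30751500 in B cells (2500 bp). In T cells they began further upstream, at 30747501, and reached 30751000, apart from 1 tile at chr13:30749501-30750000 (22.7% ± 7.20 in T cells and 10.4% ± 5.48 in B cells).

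Along the 10 CpGs of that intronic tile B cells had at most 1.89%. T cells had 3.23% to 7.69% at the first 4 and 55.3% to 94.5% at the last 6, so that the rise in T cells lay inside the tile. The sequence is printed, plus strand of mm10 with CpGs in capitals, because that rise lies in it.
Irf4, lower in B cells, chr13:30751043-30751342: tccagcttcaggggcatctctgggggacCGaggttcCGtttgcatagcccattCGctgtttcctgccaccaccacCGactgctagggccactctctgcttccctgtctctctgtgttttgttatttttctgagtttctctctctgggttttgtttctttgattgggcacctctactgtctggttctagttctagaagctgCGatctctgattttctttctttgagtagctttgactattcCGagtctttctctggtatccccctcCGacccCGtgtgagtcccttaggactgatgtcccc

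Further along, the tile with the largest rise, chr13:30760001-30760500 in an intron, was at 60% to 79.5% in B cells (median 74.7%) and at 8% to 32.4% in T cells (median 14.4%), 56.4 points apart (adjusted p = 8.58e-07). Nearly the same difference was found upstream at chr13:30742501-30743000, with 56.5% ± 9.50 in B cells and 0.338% ± 0.956 in T cells (56.2 points, adjusted p = 3.17e-07). At the 3′ end a tile that was lower in B cells (chr13:30764501-30765000, 54.3% ± 11.7 against 91.6% ± 5.02) stood just before 3 that were higher (chr13:30765501-30767000, 56.6% ± 8.88 against 27.9% ± 7.57). The gene body as a whole, which leaves out the upstream tiles, was at 56.3% ± 4.76 in B cells and 56.1% ± 3.79 in T cells. Whether opposed tiles account for these like levels was not tested.

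Prdm1 encodes Blimp-1, the repressor that closes the germinal centre programme in plasma cells and limits T cell memory. Its gene record in GENCODE starts with a retained intron transcript, Prdm1-203, and the start of its principal coding transcript lies 69814 bp further in. Both starts were hypomethylated in both cell types (5.93% ± 1.28 against 6.60% ± 1.14 at the first, and 1.78% ± 0.849 against 2.09% ± 0.889 at the principal one). Of 16 called tiles, 13 were higher in B cells. Tiles around and after the principal start held the strongest of these: chr10:44443501-44444000, 14936 bp after that start, was at 84.9% to 92.4% in B cells (median 89.6%) and at 0% to 19.9% in T cells (median 3.30%), 82.8 points apart (adjusted p = 3.01e-07). The 4 BS libraries of T cells had 14.6%, 4%, 8.77% and 19.9% there, and the 4 oxBS libraries 0%, 0%, 2.60% and 0%. These did not overlap, but the share of all tiles without such overlap was not computed. No tile of Prdm1 was past the adjusted p with BS above oxBS in T cells, where 0.0834% of all tiles were.

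Of the 12 CpGs of that leading tile, 11 had 86.9% or more in B cells and the first had 22.2%, and in T cells all were between 0% and 19.7%. Other tiles in introns of the gene record had nearly unmethylated T cells too. After the principal start, chr10:44447501-44448000 was at 73.0% ± 12.3 against 3.24% ± 2.98 (adjusted p = 1.19e-06). Upstream of the principal start, chr10:44483001-44483500 was at 37.7% ± 6.89 against 0.394% ± 0.729 (adjusted p = 4.08e-07). In the opposite direction the largest difference was smaller, at chr10:44478001-44478500, also upstream of the principal start (44.4% ± 8.01 in B cells and 82.9% ± 4.52 in T cells, adjusted p = 3.88e-06). The window at the leading tile is printed, plus strand of mm10 with CpGs in capitals, because 11 of the 12 CpGs of the tile lie in it.
Prdm1, higher in B cells, chr10:44443586-44443885: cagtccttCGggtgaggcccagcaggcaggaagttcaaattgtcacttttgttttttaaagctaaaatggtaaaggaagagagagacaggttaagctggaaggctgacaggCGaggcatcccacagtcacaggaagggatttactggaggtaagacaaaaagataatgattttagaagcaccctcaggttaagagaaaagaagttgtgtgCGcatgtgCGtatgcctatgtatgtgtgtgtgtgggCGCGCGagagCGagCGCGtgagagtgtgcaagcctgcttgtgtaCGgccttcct

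Xbp1 encodes the transcription factor of the unfolded protein response that plasma cells use to expand secretion. All 5 of its called tiles were upstream, and they formed a pair of sites with opposite direction. At the distal site, chr11:5512001-5513000, the level was 15.8% ± 4.53 in B cells and 62.2% ± 4.98 in T cells, and its stronger tile, chr11:5512001-5512500, had 0% to 11.5% in B cells (median 3.81%) and 61.6% to 74.5% in T cells (median 66.7%), a difference of -62.5 points (adjusted p = 1.49e-07). The proximal site, chr11:5517001-5518500, was at 87.1% to 94.8% in B cells and at 26.4% to 42.1% in T cells. Its leading tile, chr11:5517501-5518000, was at 94.5% ± 2.57 in B cells and 31.2% ± 8.35 in T cells, 63.2 points apart (adjusted p = 5.51e-08). T cells had no methylated call at its first 3 CpGs, which allows up to 4.76% to 5.66% at each, and 2% at the next. Further along T cells had 31.0% to 94.4%, while B cells were between 82.7% and 97.9% at all 10. A window of the stronger tile at each site is printed, plus strand of mm10 with CpGs in capitals, because the gene had its called tiles at these sites and none in its body. The proximal window holds 7 of the 10 CpGs of its tile and leaves out the first 3.
Xbp1, lower in B cells, chr11:5512201-5512500: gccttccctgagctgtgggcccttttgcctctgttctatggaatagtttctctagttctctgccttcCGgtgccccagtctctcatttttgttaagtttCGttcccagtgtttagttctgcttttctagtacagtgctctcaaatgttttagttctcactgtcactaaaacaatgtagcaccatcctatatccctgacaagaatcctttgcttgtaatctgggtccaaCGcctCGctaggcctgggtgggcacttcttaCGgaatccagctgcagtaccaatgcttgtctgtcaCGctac
Xbp1, higher in B cells, chr11:5517701-5518000: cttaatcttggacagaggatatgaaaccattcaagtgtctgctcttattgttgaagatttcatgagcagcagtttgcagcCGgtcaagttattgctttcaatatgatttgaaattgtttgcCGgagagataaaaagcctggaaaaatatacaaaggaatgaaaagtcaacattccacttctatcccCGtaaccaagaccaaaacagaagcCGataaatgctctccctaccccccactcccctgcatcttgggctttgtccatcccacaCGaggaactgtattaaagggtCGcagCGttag

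**Figure D4:**
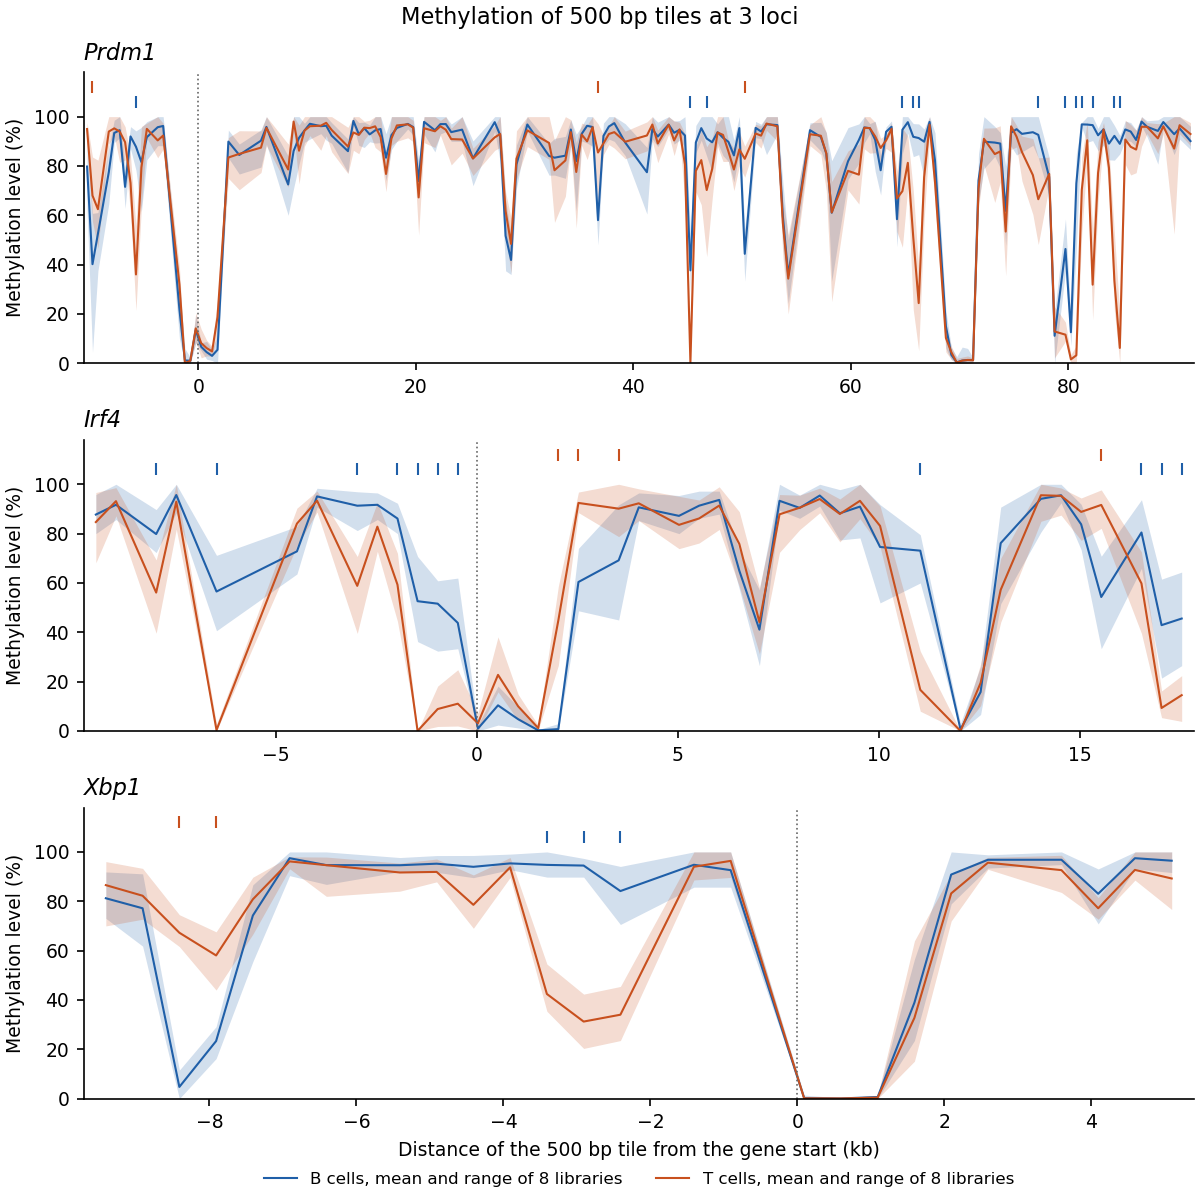
Methylation level (%) of tested 500 bp tiles against distance from the gene start (kb) at Prdm1, Irf4 and Xbp1, as the mean (line) and range (band) of 8 libraries per cell type, with tick marks over tiles called higher (lower row) or lower (upper row) in B cells. T cell levels drop in narrow dips after the principal start of Prdm1 near 70 kb, the lines of Irf4 cross around its start, and the calls of Xbp1 all lie before its start.

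Bach2, the repressor that delays plasma cell differentiation in B cells and restrains effector differentiation in T cells, held 151 called tiles, of which 140 were higher in B cells. Its median tile difference was 7.03 points. T cells were hypomethylated over a longer stretch at the start: consecutive tiles at 20% or less covered chr4:32238001-32240500 in B cells (2500 bp) and chr4:32238001-32243000 in T cells (5000 bp). The longest run of called tiles, 7 at chr4:32240501-32244000 with 51 CpGs, lay over this difference, at 51.7% to 76.8% in B cells and 9.95% to 26.3% in T cells (66.5% ± 8.23 against 17.8% ± 6.82). In the first 200 kb of the gene 122 of 312 tiles (39.1%) were called, and from 200 kb to its end 26 of 211 (12.3%).

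The largest difference among all tiles of the 8 genes was at chr4:32423501-32424000, in an intron 6316 bp after the start of a second principal transcript (Bach2-207). In B cells the levels were 90.3% to 100% (median 95.9%), and in T cells 7 libraries had no methylated call and 1 had 2.22%, 94.7 points apart (adjusted p = 7.50e-09). All 4 CpGs had 89.5% or more in B cells and at most 1.52% in T cells. The start of Bach2-207 itself was methylated in both cell types (96.8% ± 1.81 and 92.7% ± 4.26 within 1 kb). Similar intronic tiles lay at chr4:32375001-32375500 (90.6% ± 3.91 against 2.35% ± 2.76, adjusted p = 3.10e-08), chr4:32255501-32256000 (85.4% ± 12.4 against 0.568% ± 1.61, adjusted p = 3.24e-06) and chr4:32291501-32292000 (85.7% ± 8.17 against 3.47% ± 2.05, adjusted p = 8.48e-08). The strongest tile in the other direction was upstream, chr4:32231501-32232000, at 42.6% ± 13 in B cells and 95.8% ± 5.19 in T cells (-53.2 points, adjusted p = 0.000111). It missed the adjusted p in BS libraries alone (-48.5 points), in oxBS libraries alone (-57.8 points) and in females alone (-42.1 points, adjusted p = 0.103). The window around the first of these tiles, plus strand of mm10 with CpGs in capitals, is printed because it holds that largest difference.
Bach2, higher in B cells, chr4:32423701-32424000: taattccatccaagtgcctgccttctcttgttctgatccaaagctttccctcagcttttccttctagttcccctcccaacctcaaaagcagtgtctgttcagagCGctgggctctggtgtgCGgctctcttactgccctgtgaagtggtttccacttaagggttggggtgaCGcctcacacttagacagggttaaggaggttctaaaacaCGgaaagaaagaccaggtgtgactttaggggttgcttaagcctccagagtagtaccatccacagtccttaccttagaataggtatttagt

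The Bach2 body also differed by assay in T cells, where it read lower by oxBS than by BS. The 4 BS libraries of T cells had 75.5%, 75.1%, 75.3% and 75.0%, and the 4 oxBS libraries 63.7%, 62.7%, 63.2% and 64.0%. These did not overlap, but the share of all bodies without such overlap was not computed. The difference was 11.8 points (adjusted p = 0.000343 in the quasi-binomial model on T cell libraries, and exact permutation p = 0.0286, the smallest that 4 against 4 allow), where the median over all bodies was 1.27 points with a 5th to 95th percentile range of -1.38 to 7.02. BS above oxBS at an adjusted p under 0.05 was found at 28.7% of all bodies in T cells. In B cells the Bach2 body was at 83.5% ± 2.01 by BS and 83.8% ± 2.33 by oxBS (SD over 4 libraries). The test of the difference between the cell types gave 12.2 points (adjusted p = 0.00450), a test that 18.0% of all bodies passed. Read in each assay alone, B cells were higher by 8.26 points in BS libraries alone (adjusted p = 0.0148) and by 20.4 points in oxBS libraries alone (adjusted p = 0.000976), with 48 and 136 Bach2 tiles called, where 1.37% and 1.98% of all tiles were.

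The excess of BS over oxBS in T cells was spread along the gene. Of 541 Bach2 tiles, 522 read higher by BS in T cells, 318 of them at an unadjusted p under 0.05 (7.75% of all tiles), with a median of 10.5 points where all tiles had 0.882. Only 1 tile was past the adjusted p, chr4:32409501-32410000, at 93.6% ± 0.223 by BS and 65.5% ± 6.50 by oxBS (adjusted p = 0.0418), and 0.0834% of all tiles were. The excess was at least 20 points at 95 tiles, and the highest was 43.8. Over all tiles the T cell difference had a 5th to 95th percentile range of -5.19 to 9.30 points. The shares of all tiles above 0 or at 20 points or more were not computed. The median excess in Bach2 was 13.4 points in the first 200 kb and 7.34 points from there to the gene end. B cell tiles had a median of -0.0261, and 268 of 541 were above 0.

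**Figure D5:**
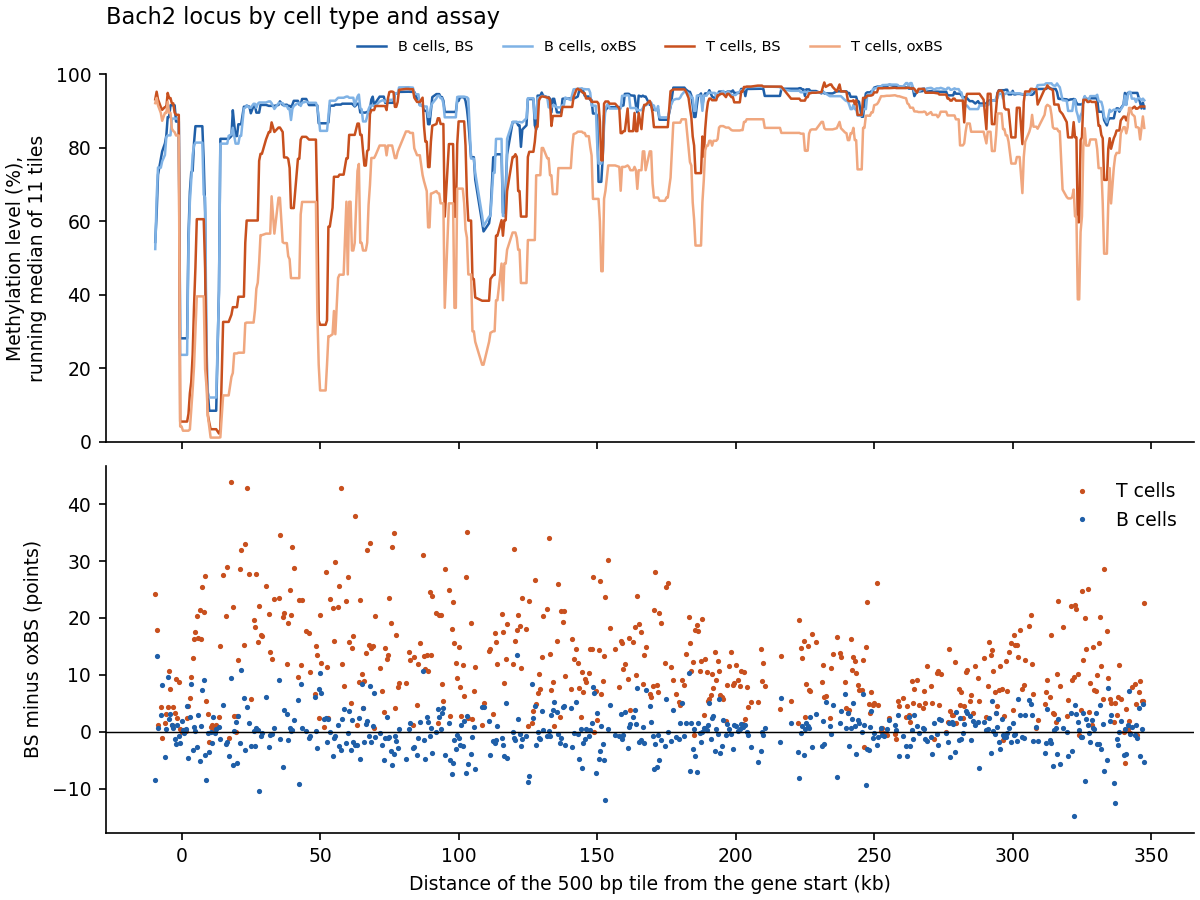
Upper panel, methylation level (%) along Bach2 as the running median of 11 tested tiles against distance from the gene start (kb), for the mean of BS and of oxBS libraries of each cell type, and lower panel, BS minus oxBS (percentage points) of each tile in B and T cells. B cell lines overlie each other, while the T cell oxBS line runs below the T cell BS line over most of the gene and the T cell points lie mostly above 0, reaching 43.8.

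Irf4 was the other gene whose body was past the adjusted p for assay in T cells, where 28.7% of all bodies were, with BS above oxBS. It was at 59.2% ± 1.32 by BS and 52.9% ± 2.26 by oxBS (6.32 points, adjusted p = 0.00666). B cells had 54.2% ± 4.17 and 58.4% ± 4.88 there (-4.19 points, adjusted p = 0.999), and the test of the difference between the cell types missed the threshold (adjusted p = 0.0545). At its promoter T cells were at 20.3%, 18.2%, 12.4% and 14.6% by BS and at 10.7%, 5.12%, 7.45% and 7.33% by oxBS. These did not overlap, but the difference missed the adjusted threshold (8.74 points, adjusted p = 0.202), and the share of all promoters without such overlap was not computed. In the model over all 16 libraries no promoter, body or tile of the 8 genes had an adjusted p under 0.05 for assay (0%, 2.11% and 0.0110% of all promoters, bodies and tiles). Sex was past it at 1 tile of Bcl6 only (chr16:23985501-23986000, male minus female -1.48 points, adjusted p = 0.0102), a tile of 14 to 37 calls per library with 0% in all libraries except 2 female oxBS libraries of B cells at 8.70% and 3.12%, where 2.40%, 1.62% and 0.101% of all promoters, bodies and tiles passed. No interaction of cell type and sex passed at the 8 genes, against 0%, 0.00488% and 0.00111%.

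Bcl6 encodes the repressor that germinal centre B cells and follicular helper T cells both require. Its promoter was nearly free of methylation in both cell types, and all 5 called tiles lay upstream of it. At chr16:23990001-23990500 B cells had 68.7% to 86.8% (median 79.2%) and T cells 11.1% to 54.7% (median 35.8%), 44.9 points apart (adjusted p = 0.000160). In T cells the BS libraries had 46.2%, 48.3%, 54.7% and 41.7% there and the oxBS libraries 13.8%, 16.0%, 11.1% and 30%. These did not overlap (adjusted p = 0.216 for assay), but the share of all tiles without such overlap was not computed. B cells had means of 78.0% by BS and 77.2% by oxBS. At chr16:23993001-23993500 the order was reversed, with 23.9% ± 11.8 in B cells and 66.0% ± 13.3 in T cells (adjusted p = 0.00358), on 3 CpGs and 12 to 34 calls per library. That tile was not called in either assay alone or in either sex alone, and it also lost the adjusted p with consecutively numbered libraries added (adjusted p = 0.0739) and without B cell libraries 3, 4, 11 and 12 (adjusted p = 0.0931). The first was not called in either sex alone.

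S1pr2 and Sdc1, the cell surface genes of the set, had few called tiles, with differences of at most 28.2 points. S1pr2, the receptor, had 3 called tiles lower in B cells and 1 higher. The exonic tile chr9:20973501-20974000 was at 44.4% to 72.7% in B cells (median 58.3%) and at 70.0% to 89.7% in T cells (median 85.1%), a difference of -24.6 points (adjusted p = 9.58e-05) with 1 T cell library within the B cell range. It missed the adjusted p in oxBS libraries alone (-30.1 points, adjusted p = 0.0773) and in males alone (-23.6 points, adjusted p = 0.112). Adjacent upstream tiles were also called lower in B cells. They were chr9:20979501-20980000 (68.4% ± 15.2 against 90.9% ± 5.25, adjusted p = 0.0175) and chr9:20980001-20980500 (71.0% ± 10.5 against 93.4% ± 2.82, adjusted p = 0.00129). The upstream tile chr9:20983001-20983500 was at 32.3% ± 8.76 and 10.7% ± 3.72 (21.5 points, adjusted p = 0.000605), but was not called in either assay or either sex alone. Sdc1 had 3 called tiles, all higher in B cells: a pair of adjacent intronic ones at chr12:8784001-8785000 (94.6% ± 1.58 against 69.0% ± 4.34) and one upstream at chr12:8761001-8761500 (69.6% ± 7.08 against 42.5% ± 9.08, adjusted p = 0.00191). Its promoter, at 3.36% and 4.09%, was hypomethylated in both cell types.

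Letters of binding motifs were counted in the tiles on both strands, as a description. The composite ETS-IRF letters (GGAA and GAAA with 2 free bases between) were in 5 of the 47 tiles that were lower in B cells (10.6%), in 9 of the 179 that were higher (5.03%) and in 4.89% of all tiles tested. For the EBF letters (TCCC and GGGA with 2 free bases between) the counts were 2 and 1, against 1.12% of all tiles. The TCF/LEF letters CTTTGAT were in 3 (6.38%) and 25 (14%), against 8.61%, the RUNX letters TGTGGTT in 6 (12.8%) and 21 (11.7%), against 11.5%, and the E-box letters CACCTG in 21 (44.7%) and 65 (36.3%), against 31.5%. Over the whole genome, the shares among tiles called lower and higher in B cells were 8.67% and 4.79% for the ETS-IRF letters and 6.34% and 0.613% for EBF. They were 6.86% and 13.2% for TCF/LEF, 12.9% and 20.7% for RUNX, and 36.0% and 38.6% for the E-box. The counts in the 8 genes are small, and 140 of the 179 higher tiles lie in Bach2, where neighbouring tiles are not independent. Whether their shares differ from those of the genome was not tested. Of the printed windows, the upstream Irf8 window holds TCF/LEF and E-box letters, the Irf4 window TCF/LEF letters and the Bach2 window E-box letters, and in the other 4 windows none of the 5 strings was found.

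Other genes of these programmes were read in the same way. Of 26 further germinal centre genes, 2 promoters were called, both lower in B cells (0.395% of all promoters): Pou2af1, a B cell coactivator of Oct factors (7.02% ± 1.89 against 44.7% ± 5.37, adjusted p = 5.02e-08), and Spib, an ETS factor (24.9% ± 12.5 against 71.7% ± 4.53, adjusted p = 0.000108). Of 24 further plasma cell genes, 4 were called. Mzb1, a chaperone of antibody assembly, was at 28.6% ± 5.65 against 78.0% ± 3.03 (adjusted p = 4.08e-08), Slamf7 was at 62.8% ± 8.86 against 92.9% ± 1.79 (adjusted p = 1.30e-05) and Tnfrsf13b, which encodes the TACI receptor, at 61.9% ± 7.37 against 93.1% ± 1.40 (adjusted p = 2.69e-06). Itgb7, an integrin subunit of gut homing, was higher in B cells (37.4% ± 4.21 against 16.3% ± 4.40, adjusted p = 7.19e-05), where 0.708% of all promoters were. By adjusted p alone, 1 germinal centre promoter was higher and 9 lower, and 2 plasma cell promoters were higher and 4 lower, where 7.52% and 3.03% of all promoters were. The median promoter difference was 0.296 and 0.268 points, beside the 0.570 over all promoters. In their windows 412 of 3291 germinal centre tiles (12.5%, 210 higher and 202 lower) and 214 of 2171 plasma cell tiles (9.86%, 126 higher and 88 lower) were called, against 3.08% of all tiles (1.98% higher and 1.10% lower) and 3.89% of those in the windows of protein-coding genes. By count and not by share, Foxp1 (101), Ikzf1 (61) and Foxo1 (25) had the most tiles higher in B cells, and Foxp1 (43), Ebf1 (33) and Pax5 (21) the most lower. Long genes have more tiles, with 552 tested at Ebf1 and 327 at Pax5. At Ikzf1, 62 of 116 tiles (53.4%) were called, against the same 3.08% and 3.89%.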

How the data were processed

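B and T cell DNA of C57BL/6J mice was read in 16 WGBS libraries. Per the labels, the authors trimmed reads with Trim Galore 0.6.0, mapped them to mm10 (GRCm38) with Bismark 0.20.0 and used SAMtools 1.3.1, and per the study's methods kept alignments with a MAPQ of 10 or more. What the authors deposited are raw counts of unmethylated and methylated calls per CpG, 1 set for each library, summed over both strands and not normalized. Positions are 1-based.

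Calls were pooled over promoters, gene bodies and 500 bp tiles of a fixed grid on 19 autosomes and the X chromosome, with gene positions and transcripts from GENCODE vM21 and sequences from mm10. Features needed 3 or more CpGs and 10 or more calls in each library. B and T cells were compared by a two-sided F test in a quasi-binomial logistic model of the call counts that also held sex and assay, adjusted by the Benjamini-Hochberg method over all features of a kind. Differences are between mean library levels, and a call also needed 20 points. Exact permutation tests were run over libraries. For BS against oxBS the model was fitted within each cell type, a fit added after seeing the data. Limits from counts cover counting error only, and whether PCR duplicates were removed is not given in the sources used here.

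The members, the lists and the limits were chosen with earlier results of these data known. The text names all 8 genes and, in each, the called tile with the largest difference in each direction, alone or within a run. The longest run of called tiles is given in most of them. Also named are every called promoter of the lists and the 3 genes with most called tiles in each direction. Other tiles named, and the 5 motif strings, were chosen after the values were seen. Markers were Cd79a, Cd79b, Pax5, Ms4a1, Ebf1, Cd22 and Blk (B cells), Cd3e, Cd3d, Cd3g, Cd4, Lck, Cd5, Tcf7, Bcl11b and Cd28 (T cells), Ncr1 and Klrb1c (natural killer cells), Lyz2, Csf1r, Itgam and Mpo (myeloid), and Cd8a and Cd8b1 (CD8 T cells), and some markers are not reported here. Alternatives covered the filters, limits, covariates, feature widths, limma on logit levels, each assay or sex alone and each library left out. The models were tested on simulated data. The simulated spread between libraries, relative to counting error, was capped below that of the Irf4, Irf8 and Bach2 bodies, and mean levels were kept off both extremes. Python 3.11.15, NumPy 2.4.6, SciPy 1.17.1, Numba 0.67.0, pandas 2.3.3, Matplotlib 3.10.9, R 4.3.3 and limma 3.58.1 were used.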

Additional observations from a re-analysis of the deposited data

Results flagged for a closer look

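In 72 groups of 8 libraries at the promoters, bodies, leading tiles and runs of the 8 genes, 5 held a library apart from the rest by Dixon's ratio at the 95% level, where chance alone flags about 5% of groups. At the Irf8 gene body T cell library 16 was at 80.5% and the others at 83.1% to 84.7%. At the Sdc1 gene body B cell library 3 was at 77.7%, above 69.7% to 73.5% in the others. B cell library 3 was also the lowest at the leading Irf4 tile (chr13:30760001-30760500), at 60% where the others had 70.5% to 79.5%. At the leading Bach2 tile (chr4:32423501-32424000) T cell library 8 had 2.22% and the other T cell libraries 0%, where any value above 0 would have been flagged. At the exonic S1pr2 tile (chr9:20973501-20974000) T cell library 6 was at 70.0% and the others at 80.4% to 89.7%.

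The BS minus oxBS difference at the Bach2 gene body was 12.2 points larger in T than in B cells (adjusted p = 0.00450), a test that 18.0% of all bodies passed. This gap between the cell types was between 11.4 and 12.9 points with each library left out in turn. All 4 BS libraries of T cells were above all 4 oxBS libraries, and the share of all bodies separated in this way was not computed.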

How the results depend on the processing

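Directions at the leading tiles and at the Irf8, Bach2 and Prdm1 bodies held under the alternatives run. Of 975 values of single features, 25 lost and 8 gained the threshold and 1 past it reversed, the Irf4 promoter read within 500 bp of the start (-0.387 points, adjusted p = 0.912). That promoter also lost its adjusted p in BS libraries alone (5.29 points), in males alone, with consecutive libraries added (adjusted p = 0.0825) and without either set of 4 B cell libraries. The Irf8 promoter lost it in oxBS libraries alone (-6.70 points, adjusted p = 0.101) and in each sex alone. The leading tiles of Bcl6 and S1pr2 and the upstream Bach2 tile accounted for the other 17 lost calls, of which 15 were in single assays or sexes and 2 were at the Bcl6 tile chr16:23993001-23993500 with consecutive libraries added (-40.7 points, adjusted p = 0.0739) and without B cell libraries 3, 4, 11 and 12 (adjusted p = 0.0931). The cause was not tested.

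No member promoter was called, except at 1 gene (Irf8) when each annotated transcript start was read, where 3 starts were called in opposite directions (-39.0, -69.0 and 24.3 points). Called bodies went from 1 to 2 at a limit of 10 points and with oxBS libraries alone, and to 0 at 30 points, without B cell libraries 3, 4, 11 and 12, and from 10 kb upstream to the gene end (Irf8, -14.9 points). Called tiles went from 226 to 148 at 30 points, 91 with BS libraries alone (66 higher), 102 with males, 104 with females and 134 with 1000 bp tiles. With oxBS libraries alone, as many libraries as with BS alone, they were 188 (164 higher), and 231 by limma. With each library left out they were 211 to 232, promoters 0 and bodies 1. Counts of called tiles in single genes moved by over 1.5 times in 41 cases, each a gene under an alternative. Assay calls went from 0 to 3 with T cell libraries alone. Over all genes, called promoters went from 232 to between 108 and 620, called bodies from 184 to between 64 and 681, and called tiles from 74769 to between 35124 and 130709.

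No paired analysis was possible for B against T cells because they share no replicate numbers. Consecutively numbered BS and oxBS libraries deviated together over 17441 gene bodies (correlations of 0.0824 to 0.208 in B and 0.156 to 0.177 in T cells, where other pairs had -0.209 to 0.0699 in B cells, and in T cells 0.123 to 0.150 within a sex and -0.168 to -0.136 across sexes). The labels do not say which libraries share DNA, and BS was not tested against oxBS with consecutive libraries as blocks. For B against T cells, adding consecutive ones left 182 called tiles (146 higher) with 4 units per cell type.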
